A study of Populus x canadensis with 12 samples.

Results

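Lignin is built in plant cell walls from monolignols, which are made from phenylalanine in a chain of enzyme steps. Caffeoyl-CoA O-methyltransferase (CCoAOMT) adds the first methyl group, cinnamoyl-CoA reductase (CCR) turns the feruloyl-CoA so formed into coniferaldehyde, and cinnamyl alcohol dehydrogenase (CAD) reduces the aldehydes to the alcohols that are joined into lignin. Coniferaldehyde hydroxylase (CAld5H) opens the branch from the guaiacyl unit, with a single methoxy group, to the syringyl unit. In a leaf, lignin is found mainly in the xylem and fibres of the veins.

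The transcripts of poplar genes of these methylation, hydroxylation and reduction steps were followed in leaves under water deprivation. The 8 loci of the set were chosen by ID, by a rule that uses no measured level but with earlier results of these data known, and all were among the 41335 gene IDs of the deposited table. The 7 described are CCoAOMT1, CCoAOMT2, CCoAOMT3, CAld5H1, CAld5H2, CCR2 and CAD1, and 1 is not reported, for a reason unrelated to its values. The enzyme names were given with the list of loci and are not in that table. Each of the 7 passed the filter of at least 1 RPKM in at least 4 libraries (RPKM scales the reads of a gene by its length in kilobases and by 1000000 reads of the library), as did 24117 genes in all.

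The 12 plants were grown in a greenhouse from rooted cuttings. They belong to hybrids 85 and 89, whose mother was Populus deltoides and whose father was Populus nigra. Each hybrid gave 2 watered control plants (C), 2 plants under moderate drought (D1) and 2 under severe drought (D2). Watering had been stopped for 8 or 13 days, and the labels do not say which period belongs to which stage. Each library came from the leaf RNA of a single plant with its own clone number. What sets the clones of a hybrid apart is not among the labels, and the p-values measure the spread among these single plants. In the tests of stages over both hybrids, and of hybrids over all stages, that spread includes any difference between the hybrids' stage changes. Plant age and day of harvest are not among the labels, and drought cannot be told apart from time. A leaf is a mixture of cells, and fewer cells of a type cannot be told apart from less RNA per cell.

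Libraries held 2259634 to 10509089 reads. The genes were read between 698 times (CAld5H1) and 8282 times (CAD1) over the 12 libraries, so the CAld5H values carry the largest counting error. As a check of the tissue, 4 rubisco small subunit IDs summed to 50221 to 60621 RPKM in C, to 27914 to 39556 in D1, and to 1057 to 12763 in D2. The lowest value was that of hybrid 89 replicate 1 in D2, and the other D2 libraries were at 7093 to 12763 RPKM. By limma at the adjusted p threshold of 0.05, 19.2% of all tested genes fell from C to D2, among them all 4 rubisco IDs. Their pairing with the enzyme name, like that of the other lists below, rests on general knowledge of poplar and was not checked against an annotation. In the following, the values of a stage are given for hybrid 85 replicates 1 and 2, then for hybrid 89 replicates 1 and 2.

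Over both hybrids together, the genes separated in severe drought into a group that rose and a group that fell. Compared with C, CCoAOMT2, CCoAOMT3 and CAD1 rose in D2, while CCoAOMT1, CCR2, CAld5H1 and CAld5H2 fell (limma on log2(RPKM + 1), adjusted p below 0.05). That is 7 of the 7 genes described, where 40.8% of all tested genes were called, 21.6% as higher and 19.2% as lower in D2. The median log2 change over the 7 genes was -1.17, which is the value of CCoAOMT1, against 0.07 over all tested genes. With 3 rises and 4 falls, this median does not describe a shift of the set as a whole. The ranges of D2 and C were separate in 4 of the 7 genes, and in 36.8% of all tested genes. Within hybrid 85 alone the 3 rises were called and 0 of the 4 falls, where 27.4% of all tested genes were called. The estimates of those 4 genes were negative there too. Within hybrid 89 all 7 were called, where 40.2% of all tested genes were.

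**Figure D1:**
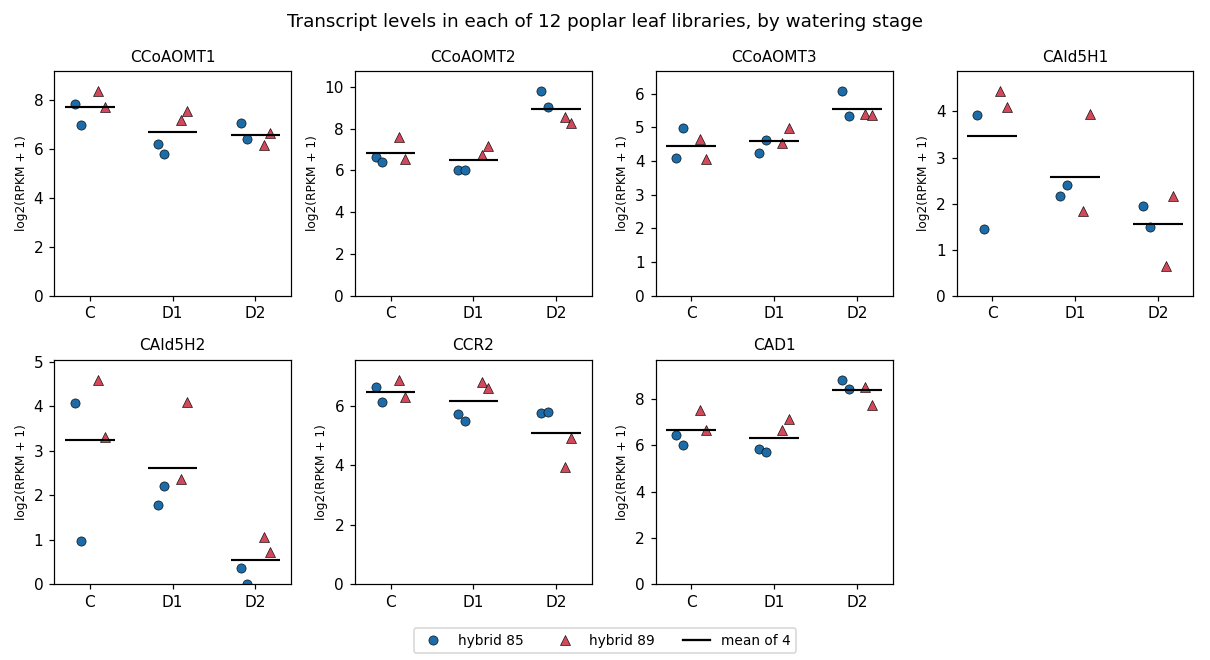
Levels of the 7 genes as log2(RPKM + 1) in each library, by stage, with circles for hybrid 85, triangles for hybrid 89 and a line at the mean of 4 libraries. The D2 values of CCoAOMT2, CCoAOMT3 and CAD1 lie above all C values, and those of CCR2 lie below all C values.

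Among the methyltransferases, CCoAOMT2 (Potri.001G304800.1, chromosome number 1 in the ID, coding length 744 bp) had the largest rise. Its level was 99.4, 84.8, 196 and 92.3 RPKM in C. In D1 it was 64.6, 63.9, 107 and 144 RPKM, within or just below the range of C. In D2 it was 886, 531, 380.0 and 313 RPKM, so the lowest severe drought plant stood above the highest control. The mean of 4 plants was 118 ± 52.4 RPKM (SD) in C, and in D2 it was 4.46 times as high, at 528 ± 256 RPKM. The log2 change from C to D2 was 2.12 ± 0.38 (SE, limma adjusted p = 0.000786), and from D1 to D2 it was 2.43 ± 0.38 (limma adjusted p = 0.000436). The rise was called in each hybrid taken alone, at 2.89 ± 0.38 in hybrid 85 and 1.35 ± 0.38 in hybrid 89 on the log2 scale (limma adjusted p = 0.000406 and 0.0161).

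CCoAOMT1 (Potri.009G099800.1, chromosome number 9, 744 bp) went the other way. This gene carries the same enzyme name and had more reads than CCoAOMT2 in every control. Its level was 231, 127, 331 and 212 RPKM in C. In D1 the 2 plants of hybrid 85 were at 73.9 and 55.0 RPKM and those of hybrid 89 at 145 and 189 RPKM. In D2 it was 132, 84.4, 70.4 and 101 RPKM, and only the lowest control, replicate 2 of hybrid 85, lay within that range. The log2 change from C to D2 was -1.17 ± 0.35 (SE, limma adjusted p = 0.0174). The call ends when replicate 1 of hybrid 85 in C is left out (limma adjusted p = 0.0551), or replicate 1 of hybrid 89 in C (0.0567). In hybrid 85 alone the change from C was -0.69 ± 0.38 (limma adjusted p = 0.205). From D1 to D2 the change was -0.12 ± 0.35 (limma adjusted p = 0.811).

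CCoAOMT3 (Potri.008G136600.1, chromosome number 8, 708 bp) was the lowest of the 3 CCoAOMT genes in every library. It stood at 15.9, 30.4, 24.4 and 15.6 RPKM in C and at 17.8, 23.8, 22.1 and 30.6 RPKM in D1. In D2 it was 66.3, 39.7, 41.5 and 40.2 RPKM, above all values of the other stages. The log2 change was 1.11 ± 0.27 from C to D2 and 0.95 ± 0.27 from D1 to D2 (SE, limma adjusted p = 0.00591 and 0.0167). The second call ends without replicate 1 of hybrid 85 in D1 (limma adjusted p = 0.0549) or in D2 (limma adjusted p = 0.056).

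The make-up of the CCoAOMT transcripts differed between stages. Of the summed CCoAOMT level, the share of CCoAOMT1 was 61.4 ± 6.65% in C (SD over 4 plants). It was 47.7 ± 6.55% in D1, and in D2 it ran from 12.2% to 22.2%. CCoAOMT2 made up 28.7% to 35.6% in C, 41.2 ± 2.56% in D1 and up to 81.7% in D2, with a mean of 77.2 ± 5.86%. The level of CCoAOMT2 over that of CCoAOMT1 was 0.43, 0.67, 0.59 and 0.44 in C. It was 0.87, 1.16, 0.74 and 0.76 in D1 and 6.71, 6.29, 5.40 and 3.11 in D2. The 3 ranges were separate, with every control below 1 and every D2 plant above 1. The ratio was not tested. The summed level was 365 ± 132 RPKM in C, 234 ± 105 in D1 and 671 ± 289 in D2. The coding lengths of CCoAOMT1 and CCoAOMT2 are equal, and how the authors counted reads shared by similar copies is not given in the sources used here, so part of the reads of one may come from the other.

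**Figure D2:**
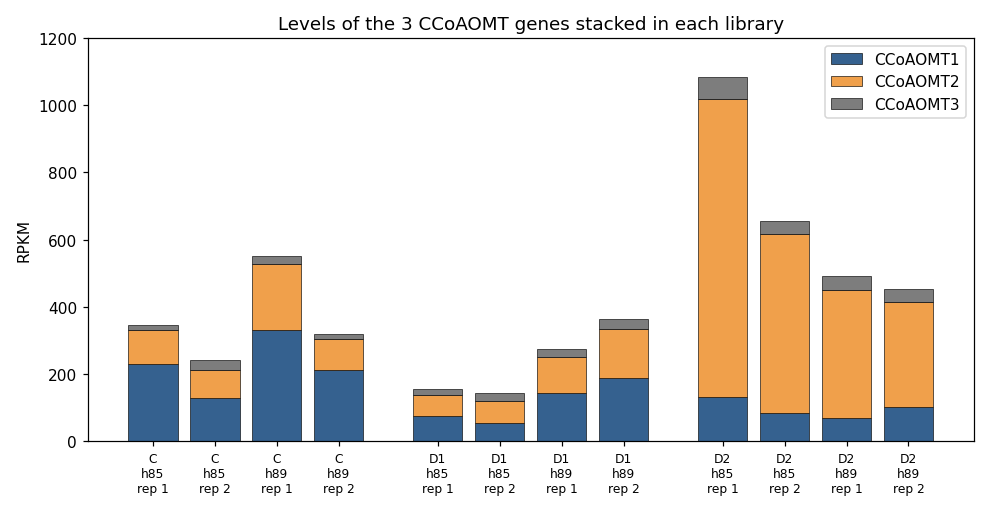
RPKM of CCoAOMT1, CCoAOMT2 and CCoAOMT3 stacked for each of the 12 libraries (h85 and h89 are the hybrids). CCoAOMT1 is the largest part in every C library and CCoAOMT2 the largest part in every D2 library, where the sums run from 454 to 1085 RPKM.

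The hydroxylase genes CAld5H1 (Potri.005G117500.1, chromosome number 5, 1542 bp) and CAld5H2 (Potri.007G016400.1, chromosome number 7, 1545 bp) were the lowest of the 7 genes in every stage mean, and fell further in D2. CAld5H2 stood at 15.8, 0.98, 23.1 and 8.94 RPKM in C. It was 2.44, 3.64, 4.18 and 16.02 RPKM in D1. In D2 it was covered by 1, 0, 4 and 4 reads and was at most 1.102 RPKM, where 3 reads, the limit that a count of 0 allows, amount to 0.86, 0.61, 0.83 and 0.49 RPKM. Replicate 2 of hybrid 85 in C, with 4 reads, lay within the range of D2. The log2 change was -2.70 ± 0.58 from C to D2 and -2.07 ± 0.58 from D1 to D2 (SE, limma adjusted p = 0.00262 and 0.0157). The call between D1 and D2 ends without replicate 2 of hybrid 89 in D1 (limma adjusted p = 0.0572). With a pseudocount of 0.1 in place of 1 the change from C to D2 was -4.16, and by limma-voom on recovered reads it was -4.47. In hybrid 85 alone it was -2.35 ± 0.87 (limma adjusted p = 0.0695).

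CAld5H1 followed a similar course with a smaller change. Its level was 14.1, 1.71, 20.7 and 16.1 RPKM in C, and the low control was again replicate 2 of hybrid 85. In D1 it was 3.46, 4.26, 2.58 and 14.4 RPKM. The D2 plants were at 2.87, 1.82, 0.55 and 3.46 RPKM, from 10, 9, 2 and 21 reads. The log2 change from C to D2 was -1.91 ± 0.61 (SE, limma adjusted p = 0.0239). The call ends when 1 of 4 libraries is left out: in C, hybrid 85 replicate 1 (limma adjusted p = 0.0751) or hybrid 89 replicate 1 (0.0756) or 2 (0.0633), and in D2, hybrid 89 replicate 1 (0.0731). Within hybrid 85 the change was -0.95 ± 0.83 (limma adjusted p = 0.433).

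The reductases at either end of the aldehydes moved apart in D2. CCR2 (Potri.003G181400.1, chromosome number 3, 1017 bp) stood at 97.9, 69.1, 116 and 77.6 RPKM in C and at 51.6, 44.3, 110 and 95.3 RPKM in D1. The D2 plants were at 53.5, 55.0, 14.2 and 29.0 RPKM, below all controls. The log2 change from C to D2 was -1.38 ± 0.42 (SE, limma adjusted p = 0.0187). Leaving out hybrid 89 replicate 1 of C gave -1.23 (limma adjusted p = 0.0596). Without hybrid 89 replicate 1 of D2, the lowest plant, the change was -0.94 (limma adjusted p = 0.0431). The low D2 values were those of hybrid 89, in which the change was -2.17 ± 0.34 (limma adjusted p = 0.000728). In hybrid 85 it was -0.59 ± 0.34 (limma adjusted p = 0.231).

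CAD1 (Potri.009G095800.1, chromosome number 9, 1074 bp), which makes the monolignols themselves, rose. It stood at 85.7, 63.3, 185 and 101 RPKM in C and at 55.9, 51.2, 99.1 and 142 RPKM in D1. In D2 it was 450.4, 343, 369.9 and 215 RPKM, above every value of C and D1. The log2 change was 1.72 ± 0.35 from C to D2 and 2.05 ± 0.35 from D1 to D2 (SE, limma adjusted p = 0.00176 and 0.000746). The rise from C was called in hybrid 85 (2.40 ± 0.37, limma adjusted p = 0.00104) and in hybrid 89 (1.04 ± 0.37, limma adjusted p = 0.0461).

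**Figure D3:**
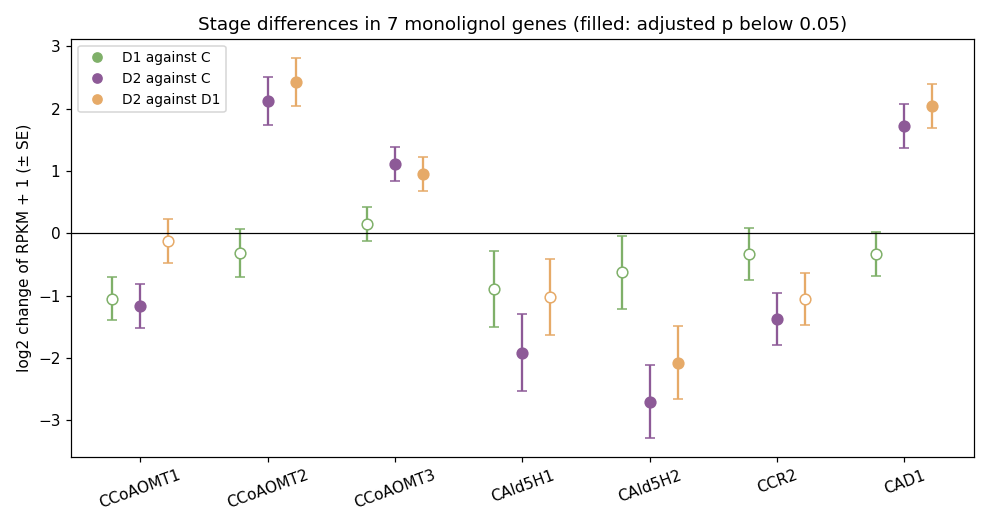
Log2 change of RPKM + 1 with its SE for each gene in D1 against C, D2 against C and D2 against D1 (12 libraries, limma with stage and hybrid). Filled points have adjusted p below 0.05: 7 in D2 against C, 4 in D2 against D1 and 0 in D1 against C.

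Moderate drought gave no called change in these genes. In D1 against C 0 of the 7 genes were called by limma and 0 by limma-voom on reads recovered from the RPKM values, where limma called 5.56% of all tested genes, 3.14% as higher and 2.42% as lower. CCoAOMT1 alone had an unadjusted p below 0.05. It averaged 116 ± 62.3 RPKM (SD) over the 4 plants of D1 and 225 ± 83.6 RPKM over those of C, with overlapping ranges. The difference on the log2 scale was -1.04 ± 0.35 (SE, limma adjusted p = 0.104). It was called when libraries were weighted by quality (limma adjusted p = 0.03) and without replicate 1 of hybrid 89 in D2 (limma adjusted p = 0.0497). Of the other 6 genes, CCoAOMT3 had a log2 change of 0.15, which was -0.04 with median-ratio scaling, and 5 had values between -0.89 and -0.31. The ranges of D1 and C were separate in 0 of the 7 genes and in 14.9% of all tested genes.

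From D1 to D2, CCoAOMT2, CCoAOMT3 and CAD1 rose and CAld5H2 fell. These are 4 of 7 genes, where 34.0% of all tested genes were called, 15.8% as higher and 18.2% as lower in D2. The ranges were separate in the same 4 genes, and in 30.4% of all tested genes. CCR2 differed by -1.05 ± 0.42 in this comparison (log2 and SE, limma adjusted p = 0.0702), and CAld5H1 by -1.02 ± 0.61 (limma adjusted p = 0.216). The 3 stage comparisons share libraries, so they are not independent of each other. In the order of levels, CCoAOMT1, CCoAOMT2, CAD1 and CCR2 followed each other from the highest to the lowest mean in both C and D1, with overlapping ranges between neighbours. In D2 the order was CCoAOMT2, CAD1, CCoAOMT1, CCoAOMT3, CCR2, CAld5H1 and CAld5H2. CCoAOMT2 was above CAD1 in 4 of 4 D2 libraries although their ranges overlapped, and CAD1 did not overlap with CCoAOMT1 below it.

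No difference between the hybrids over all stages was called in these genes. In hybrid 89 against hybrid 85, 0 of 7 genes were called by limma and 0 by limma-voom, where limma called 2.94% of all tested genes, 0.974% as higher and 1.97% as lower in hybrid 89. The ranges were separate in 0 of the 7 and in 1.33% of all tested genes. CAld5H2 alone had an unadjusted p below 0.05 (log2 difference 1.13 ± 0.48, SE, limma adjusted p = 0.236). In D1 both plants of hybrid 85 were lower than both plants of hybrid 89 in CCoAOMT1, CCoAOMT2, CCR2, CAD1 and CAld5H2, an ordering that 35.4% of all tested genes had. In D2 both plants of hybrid 85 were higher than both of hybrid 89 in CCoAOMT2 and CCR2, as in 23.2% of all tested genes. A change of the hybrids' order between D1 and D2 was not tested. For CCR2 the log2 difference of hybrid 89 from hybrid 85 was 1.09 ± 0.34 within D1 and -1.37 ± 0.34 within D2 (limma adjusted p = 0.0837 and 0.046). CCR2 was the 1 gene of 7 called within D2, where 5.45% of all tested genes were called, and 0 of 7 were called within D1, where 7.50% of all tested genes were called.

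The test of whether the D2 change itself differed between hybrids called 0 of 7 genes by limma and 0 by limma-voom, where limma called 0.469% of all tested genes, 0.34% as higher and 0.129% as lower. At an unadjusted p below 0.05 there were 3, all with the lower value in hybrid 89. The difference of the log2 changes was -1.57 ± 0.49 in CCR2, -1.54 ± 0.54 in CCoAOMT2 and -1.36 ± 0.53 in CAD1 (SE, limma adjusted p = 0.136, 0.171 and 0.209). In CCR2 it was called without replicate 2 of hybrid 89 in D2, at -2.06 (limma adjusted p = 0.0114), a setting under which 10.8% of all tested genes were called. Without replicate 1 of that hybrid and stage it was -1.08 (limma adjusted p = 0.222). For the D1 change 0 of 7 genes were called by either tool, 0.0% of all tested genes were called by limma, and 0 of the 7 had an unadjusted p below 0.05. With 2 plants per stage and hybrid, a p above the threshold is no evidence of equal changes in both.

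Genes of secondary walls were set beside these values, since most lignin of a leaf lies there. A list of 5 secondary wall cellulose synthase IDs, which mark cells that form xylem or fibres, summed to 150.5, 45.5, 281 and 150 RPKM in C. The sum was 9.25, 9.75, 107 and 237 RPKM in D1 and 2.51, 2.41, 8.43 and 5.78 RPKM in D2. All 5 IDs fell from C to D2 by limma at the adjusted p threshold of 0.05, as did 19.2% of all tested genes. The median log2 change of the 5 was -3.67, and 6 of their 20 D2 values were 0. In D1 against C 0 of the 5 were called by limma, where 5.56% of all tested genes were called. Over all stages 2 of the 5 were called as higher in hybrid 89, where 0.974% of all tested genes were. The median log2 difference of the 5 between hybrids was 1.82. The plant with the lowest sum in C, replicate 2 of hybrid 85, was also the lowest control in 6 of the 7 genes, all but CCoAOMT3, and in 22.4% of all tested genes. In D2 the list was near 0 in the same libraries in which CCoAOMT2 and CAD1 had their highest values. The part of these cells in the levels of the 7 genes was not tested.

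**Figure D4:**
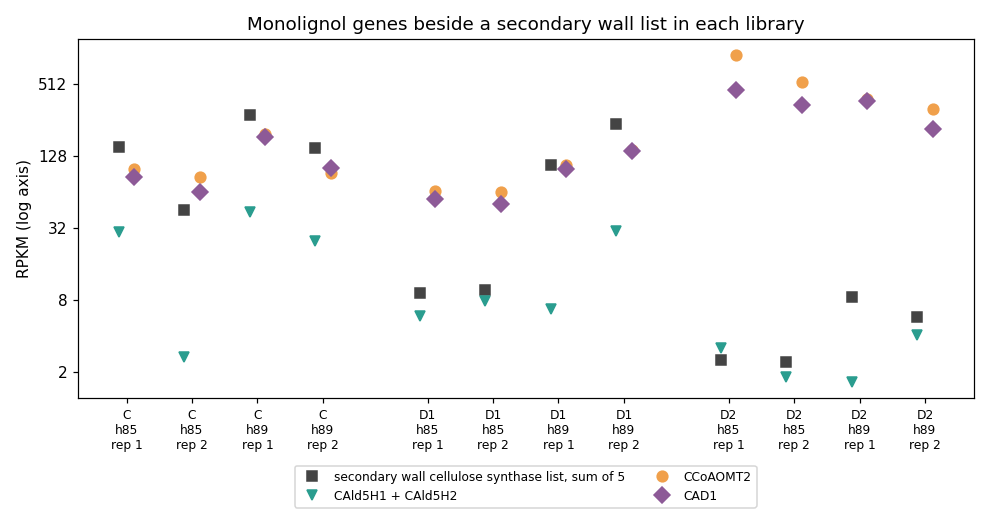
Summed RPKM of the 5 secondary wall cellulose synthase IDs and of both CAld5H genes, with CCoAOMT2 and CAD1, in each library on a log axis. The wall list is lowest in D2 hybrid 85 replicate 2, at 2.41 RPKM, where CCoAOMT2 stands at 531 RPKM. CAld5H is lowest in D2 hybrid 89 replicate 1, at 1.66 RPKM, where CCoAOMT2 stands at 380 RPKM. The CAld5H sum of C hybrid 85 replicate 2, at 2.69 RPKM, lies within the D2 range.

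The steps of the pathway before the first methylation were followed through 14 IDs, from phenylalanine ammonia-lyase to caffeoyl shikimate esterase. In D2 against C 2 of the 14 rose, 2 fell and 10 were not called, with a median log2 change of 0.22, where 40.8% of all tested genes were called. The rises were in Potri.003G059200.1, from 19.7 ± 1.59 to 54.5 ± 14.9 RPKM, and Potri.003G183900.1, from 17.7 ± 7.38 to 34.7 ± 9.37 RPKM (SD, n = 4). The falls were in Potri.016G091100.1, from 135 ± 72.8 to 20.8 ± 24.9 RPKM, and Potri.019G130700.1, from 125 ± 53.4 to 54.3 ± 34.5 RPKM. In D1 against C 1 of the 14 rose and 2 fell, with a median of -0.79, where 5.56% of all tested genes were called. From D1 to D2 5 of the 14 rose and 0 fell, where 15.8% of all tested genes were called as higher and 18.2% as lower. Summed, they stood at 1071 ± 171 RPKM (SD) in C and at nearly the same 1069 ± 165 RPKM in D2, with 497 ± 160 RPKM in D1.

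Similarity of profiles was measured as the root mean square difference of log2(RPKM + 1) over the 12 libraries, after centring each gene. CCoAOMT2 and CAD1 were closest to each other, at 0.30, and 0 of 15638 other genes with a mean of at least 5 RPKM were closer to either. The closest gene outside the set was Potri.008G164800.1 for CCoAOMT2, also at 0.30. CAld5H1 and CAld5H2 differed by 0.73, and CCoAOMT1 and CCoAOMT2 were not each other's nearest. CCoAOMT1 was nearest to CCR2 among the 7 genes, at 0.56, with 175 other genes closer to CCoAOMT1 and 794 closer to CCR2. For CCoAOMT3 the nearest of the 7 was CAD1, at 0.68, with 5642 other genes closer to CCoAOMT3. Other genes closer than the CAld5H partner were 12 for CAld5H1 and 5 for CAld5H2. These distances are descriptions over libraries that share stage, hybrid and depth.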

How the data were processed

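Leaf RNA of 12 single plants was made into TruSeq libraries, per the labels' protocols. The sequencer was an Illumina HiSeq2000, as the series' design text states. The submitters' processing notes name Trimmomatic 0.32. For the aligner, the counting of reads, the use of strand, the build and the annotation the answer is "not given in the sources used here". The deposited table holds RPKM, 1 column per plant as the authors computed it. Its 3 columns of stage means were not used. Columns were matched to plants by stage, hybrid and clone number.

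The steps between low RPKM values gave the whole reads, library totals and coding lengths, with 100.0% of nonzero values whole reads to within 0.01. Each gene took the smallest length that met this same tolerance, so the share is not a separate check of the recovery. An RPKM value is a share of its library, not an amount per cell. Floors cover counting error only. Replicate plants differed by more than sampling noise, with a chi-square per degree of freedom of 5.88 to 39.1.

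The test was limma 3.58.1 (R 4.3.3) on log2(RPKM + 1) with a variance trend, over the 24117 genes that reached 1 RPKM in 4 or more libraries, with stage and hybrid as additive terms. A gene was called at a Benjamini-Hochberg adjusted p below 0.05. Changes on this scale understate those of low genes. Differences between the hybrids' changes used 6 groups of 2 libraries; values within a hybrid or a stage come from that model and, like the shares of all genes with a given order of single plants, were added after seeing the data. The fits and the recovery of reads were tested on simulated data. In the simulation of the fits all genes had the same dispersion and the hybrids did not differ. Its rate of false calls need not hold for these plants.

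The 8 loci and the lists were chosen with earlier results of these data known. Of the 8, 1 is not reported here, and counts and medians are over the other 7. From the list of 14 IDs the 2 largest called rises and falls in D2 against C are named, and for each of the 7 genes the 2 genes of most similar profile were sought, of which few are printed because the IDs carry no names here. Lists of enzyme relatives and methyl supply genes, and gene sequences, were not analysed here.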

Additional observations from a re-analysis of the deposited data

Results flagged for a closer look

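Each gene and stage, 21 sets of 4 plants in all, was checked for a plant whose gap to its nearest neighbour takes up more of the range than Dixon's 95% critical value for 4 allows. For independent values of a normal distribution chance gives about 1 in 20 such sets. The sets here hold untransformed RPKM of both hybrids and share libraries, so that rate need not apply. There were 4 such sets. CCoAOMT2 was high in replicate 1 of hybrid 89 in C, at 196.2 RPKM, with a gap of 0.869 of the range. The same control had the highest C value of CCoAOMT1, CCR2, CAld5H1, CAld5H2 and CAD1 as well, and the highest secondary wall list. How many of all tested genes were highest in that control was not counted.

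Replicate 2 of hybrid 89 in D1 was high in CAld5H1, at 14.45 RPKM, and in CAld5H2, at 16.02 RPKM, with gaps of 0.859 and 0.872 of the range. It also had the highest D1 sum of the 5 secondary wall IDs, at 237 RPKM. The same plant had the highest D1 value of CCoAOMT1, CCoAOMT2, CCoAOMT3 and CAD1 as well, but not of CCR2. How many of all tested genes were highest in that plant was not counted. CCoAOMT3 was high in replicate 1 of hybrid 85 in D2, at 66.26 RPKM, with a gap of 0.933 of the range. That plant had the highest D2 value of CCoAOMT1, CCoAOMT2 and CAD1 as well, but not of CCR2, CAld5H1 or CAld5H2.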

How the results depend on the processing

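The counts of called genes held under the other pseudocounts, filters, scalings and tools, within 1.5 times, except where given here. In D1 against C, weighting libraries by quality gave 1 called gene in place of 0, with calls over all genes going from 5.56% to 11.04%. Leaving out 1 library gave 0 to 1, the 1 without hybrid 89 replicate 1 of D2, where 8.70% of all genes were called. In D2 against C, leaving out 1 library gave 4 to 7 called genes. The 4 were without hybrid 89 replicate 1 of C, where 35.1% of all genes were called. Within hybrid 85 the count was 3, all of them rises and 0 falls, where 27.4% of all genes were called. Within hybrid 89 it was 7, where 40.2% were. In D2 against D1, leaving out 1 library gave 3 to 5, where 26.4% to 34.8% of all genes were called. Between hybrids, 1 gene was called within D2, CCR2, where 5.45% of all genes were called, and 0 whichever library was left out. For the hybrid difference in the D2 change, leaving out 1 library gave 0 to 1, the 1 with 10.8% of all genes called, and for the D1 change 0. CCoAOMT2 and CAD1 kept their calls in D2 against both other stages under every setting run, as did CCoAOMT3 in D2 against C; the CAld5H2 call in D2 against C ended only within hybrid 85.

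The replicate numbers did not pair plants: same-numbered libraries had deviations correlated at -0.243 to 0.082 over 15 pairs, and clone numbers differ. With the replicate number as a block the counts were 0 in D1 against C, 7 in D2 against C, 4 in D2 against D1 and 0 for the hybrids. Of all tested genes 4.79%, 39.7%, 32.6% and 2.32% were called with that block, in the same order.

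Direction turned only in log2 values that were not called, and the cause was not tested. With median-ratio scaling CCoAOMT3 in D1 against C was -0.039, CCR2 between hybrids was 0.01, and the hybrid difference in the D1 change was -0.102 for CAD1. This scaling moved the median of all genes in D1 against C from 0.139 to -0.018, and in D2 against C from 0.072 to -0.046. With quantile normalization CCoAOMT3 between hybrids was 0.026 and CCR2 0.072. Quality weights gave 0.087 for CCoAOMT1 in D2 against D1 and, between hybrids, 0.08 for CCoAOMT3 and 0.273 for CCR2. Limma-voom gave 0.04 for CCR2 between hybrids and, for CAld5H2, a hybrid difference of 0.373 in the D1 change and 1.122 in the D2 change, the latter 0.476 with a pseudocount of 0.1.

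Within hybrid 85, CCoAOMT3 was -0.092 in D1 against C, and in D2 against D1 CCoAOMT1 was 0.718 and CCR2 0.18. Within hybrid 89, CCR2 was 0.111 in D1 against C. Between hybrids within D2, CCoAOMT1 was -0.325, CCoAOMT2 -0.99, CAld5H1 -0.329 and CAD1 -0.479. CCoAOMT3 was 0.324 within D1, and CCR2 was 0.204 within C and 1.085 within D1.

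Leaving out 1 library at a time gave -0.003 to 0.341 for CCoAOMT3 in D1 against C and -0.409 to 0.136 for CCoAOMT1 in D2 against D1. Between hybrids it gave -0.017 to 0.403 for CCoAOMT2, -0.158 to 0.072 for CCoAOMT3 and -0.193 to 0.263 for CCR2. For the hybrid difference in the D1 change it gave -0.147 to 0.932 for CCoAOMT2, -2.21 to 0.263 for CAld5H1, -1.735 to 1.354 for CAld5H2 and -0.182 to 0.686 for CAD1. For the D2 change it gave -0.606 to 0.291 for CCoAOMT3 and -2.249 to 0.84 for CAld5H2. Where a stage of 1 hybrid was left with 1 plant, that plant is assumed to vary like the rest. Of the values of single genes, 463 of 504 kept their direction and side of the threshold with 1 library left out, 448 of 462 under the other settings, and 43 of 63 within a hybrid or stage.

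Depth limits the CAld5H genes most, with at most 21 reads per library in D2.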

Other observations

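The balance of the 2 reductases was set beside the stages. The level of CAD1 over that of CCR2 was 0.88 to 1.59 in C and 0.90 to 1.49 in D1. In D2 it was 8.42 and 6.24 in hybrid 85 and 26.0 and 7.40 in hybrid 89. The highest ratio was that of hybrid 89 replicate 1, where CCR2 had 34 reads. This ratio was not tested.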
